A study of Bos taurus with 16 samples.

Results

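The 9 genes described here encode the MHC class II antigen presentation machinery: the class II transactivator CIITA, the invariant chain CD74, and the bovine class II chains BOLA-DRA, BOLA-DRB3, BOLA-DMA, BOLA-DMB, BOLA-DQB, BOLA-DOB and BOLA-DYA. They are 9 of the 28786 genes in the count table. The members were selected by symbol, on their agonist against control values by cow in 12 libraries, so those values are given as a description, with no test. All 9 symbols were found in the table, but only 7 had counts in those 12 libraries. The same 7 passed the filter on low counts (over 4 counts in at least 1 library).

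The libraries came from precision-cut liver slices, thin living sections of a liver biopsy, of primiparous Jersey cows after calving. The medium was William's Medium E, and slices spent 18 h in it with WY-14643 (100 µM, a PPARα agonist), GW-501516 (50 µM, a PPARδ agonist) or rosiglitazone (100 µM, a PPARγ agonist), or as the control, which is labelled untreated. All 4 groups, the control included, carried 0.8% DMSO according to the treatment protocol. PPARs are nuclear receptors that respond to fatty acids and regulate genes of lipid metabolism. Each cow gave 1 library per group, so the replicate is the cow (581, 576 and 567), and cow 574 is described apart. The study removed 1 animal for low RNA integrity and a separate place in a principal component analysis but gives no number for it, and cow 574, whose libraries stand apart, was taken to be that animal.

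MHC class II molecules are pairs of an alpha and a beta chain that show peptides from engulfed proteins to helper T cells. CD74 fills the peptide groove of new class II pairs and guides them to endosomes, where proteases digest it and the DM pair exchanges its last fragment for antigen peptide. CIITA is the factor on which transcription of these genes depends, and in the liver the genes are known chiefly from Kupffer cells, dendritic cells, B cells and sinusoidal endothelium rather than hepatocytes.

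The 12 libraries held 3081980 to 10227300 counts in genes, of which the 18S ribosomal RNA gene RN18S1 took 11.9 to 63.8%. The GW-501516 library of cow 576 stood apart, with the highest RN18S1 share (63.8%) and the fewest genes detected (9993, against 12933 to 17461 in the other 11). The descriptions of 3 libraries (WY-14643 of cows 581 and 567, GW-501516 of cow 581) carry the mark "rd", whose meaning is not given, and these had the lowest RN18S1 shares (11.9 to 16.4%). Over the 12 libraries together, the hepatocyte list (ALB, APOA1, TTR and 5 others) was detected in full, as were the 12 macrophage and Kupffer cell markers. Levels below are TMM-scaled CPM, the counts of a gene relative to the library's total after that total is multiplied by the library's TMM factor. A count of 0 in a library still allows up to 0.240 to 1.19 CPM, depending on this scaled total (3 counts, counting error only). In bulk slices, fewer cells of a type and less RNA per cell cannot be told apart.

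Summed over the 9 genes, the class II level was lowest in the rosiglitazone slices of each cow. In rosiglitazone slices the sum was 80.8 CPM (cow 581), 144 CPM (cow 576) and 137 CPM (cow 567), against 935, 380 and 697 CPM in control slices of the same cows. That is 8.64%, 38.02% and 19.6% of the cow's own control. GW-501516 slices held 75.7%, 40.8% and 48.3% of own control, and WY-14643 slices 74.8%, 82.8% and 62.1%, in the same order of cows. The rosiglitazone sums lay below all 3 control sums, and the control sums themselves spanned 380 to 935 CPM. Of all counts outside RN18S1, the 9 genes took 0.0125%, 0.0218% and 0.0234% in the rosiglitazone libraries of cows 581, 576 and 567. The shares in the control libraries of these cows were 0.141%, 0.0652% and 0.113%.

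**Figure D1:**
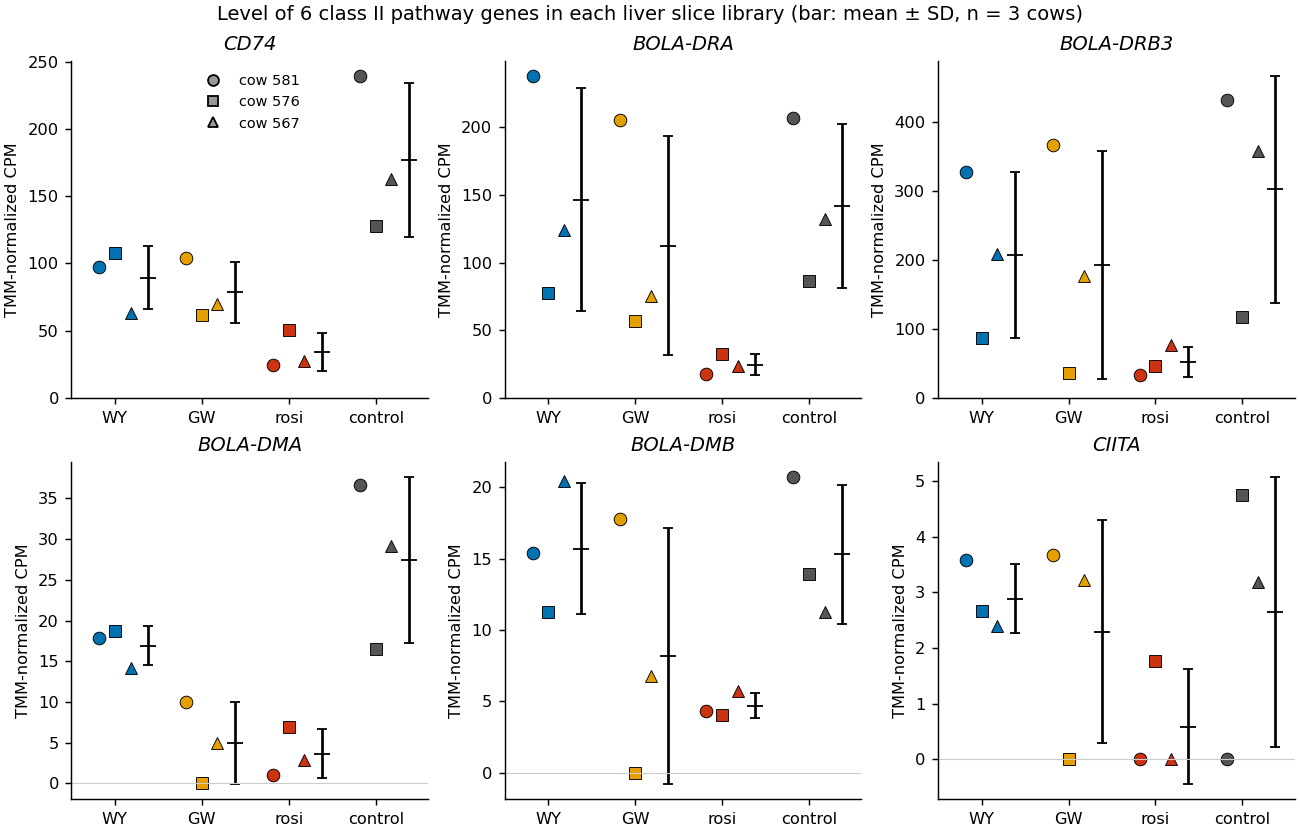
TMM-normalized CPM (vertical axes, linear) of 6 of the genes in the 12 libraries, by group (WY, WY-14643; GW, GW-501516; rosi, rosiglitazone; control), with a symbol per cow and the mean ± SD of 3 cows as a bar beside them. The rosiglitazone points of CD74 (24.6 to 50.7 CPM), BOLA-DRA, BOLA-DRB3, BOLA-DMA and BOLA-DMB all lie below the lowest control point of the same gene, whereas those of CIITA overlap its control points.

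CIITA, the transactivator, had at most 44 counts in a library and none in 4 of the 12. It had 3.58, 2.67 and 2.40 CPM in WY-14643 slices of cows 581, 576 and 567, 3.67, 0 and 3.21 CPM in GW-501516 slices, 0, 1.77 and 0 CPM in rosiglitazone slices, and 0, 4.74 and 3.18 CPM in control slices. The 11 counts in the rosiglitazone group all came from cow 576, against 30 in the control group from cows 576 and 567. The control library of cow 581 had no CIITA count, which allows up to 1.19 CPM, so in that cow no fall could have been seen. Groups overlapped, and the fitted log2 fold change of rosiglitazone against control was -2.07 ± 1.87 (SE), a spread nearly as large as the value.

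CD74, the invariant chain, was lower than in the cow's own control in every agonist slice of all 3 cows. In rosiglitazone slices it had 24.6, 50.7 and 27.4 CPM (cows 581, 576 and 567), against 239.5, 128 and 163 CPM in control slices. WY-14643 slices had 97.5, 108 and 62.8 CPM, and GW-501516 slices 104, 61.7 and 69.7 CPM. Under WY-14643 the marked libraries of cows 581 and 567 held 40.7 and 38.5% of own control. The unmarked WY-14643 library of cow 576 held 84.5%, and the part of the mark in this difference was not tested. No agonist value reached the lowest control value, and the rosiglitazone values lay below those of the other agonists in each cow. Fitted log2 fold changes against control were -0.98 ± 0.41 for WY-14643, -1.17 ± 0.41 for GW-501516 and -2.36 ± 0.43 for rosiglitazone (SE, 3 cows per group).

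BOLA-DRA and BOLA-DRB3 encode the alpha and beta chains of DR, the main class II pair of cattle. BOLA-DRA had 17.3, 32.8 and 23.8 CPM in rosiglitazone slices of cows 581, 576 and 567, against 207, 86.5 and 132 CPM in control slices. Its level was 238, 77.6 and 124 CPM in WY-14643 slices, which overlapped the control values, and 206, 56.8 and 75.4 CPM in GW-501516 slices. The fitted log2 fold changes against control were 0.05 ± 0.45 (WY-14643), -0.33 ± 0.45 (GW-501516) and -2.52 ± 0.48 (rosiglitazone).

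BOLA-DRB3 had 33.5, 46.0 and 76.9 CPM in rosiglitazone slices of the same cows, against 432, 118 and 358 CPM in control slices. In WY-14643 slices it had 328, 87.0 and 209 CPM, and in GW-501516 slices 366, 36.6 and 177 CPM. Each of these 6 values was below the cow's own control, but the ranges of both groups overlapped that of the controls. The fitted log2 fold changes against control were -0.54 ± 0.51 (WY-14643), -0.64 ± 0.51 (GW-501516) and -2.54 ± 0.54 (rosiglitazone).

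BOLA-DMA and BOLA-DMB form the DM pair, which loads peptide onto class II molecules. BOLA-DMA had 1.08, 6.94 and 2.86 CPM in rosiglitazone slices of cows 581, 576 and 567, against 36.6, 16.5 and 29.1 CPM in control slices. Its GW-501516 values, 9.99, 0 and 4.91 CPM, also lay below all control values, whereas the WY-14643 values of 17.9, 18.7 and 14.2 CPM overlapped them. BOLA-DMB had 4.32, 4.03 and 5.72 CPM in rosiglitazone slices, against 20.7, 14.0 and 11.3 CPM in control slices. The rosiglitazone values of BOLA-DMB were again all below the controls, while those of WY-14643 (15.4, 11.3 and 20.5 CPM) and GW-501516 (17.8, 0 and 6.80 CPM) overlapped them.

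The fitted log2 fold change of BOLA-DMA was -2.89 ± 0.91 for rosiglitazone, -2.42 ± 0.89 for GW-501516 and -0.69 ± 0.84 for WY-14643 against control (SE). For GW-501516 it was -1.87 when the library of cow 576, which had no DM count at all, was left out. BOLA-DMB had -1.70 ± 0.93, -0.87 ± 0.90 and 0.04 ± 0.89 for the same agonists. Without the GW-501516 library of cow 576 its value for GW-501516 was -0.31.

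**Figure D2:**
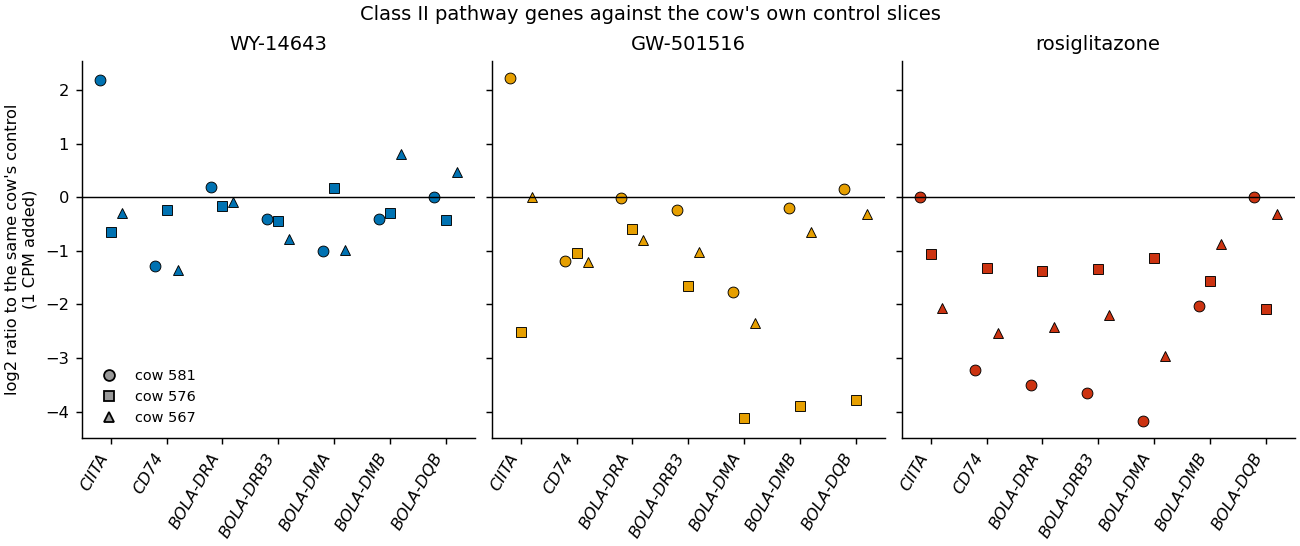
Log2 ratio of each gene's CPM to the same cow's control slices after adding 1 CPM (vertical axis) for the 7 genes with counts, in WY-14643, GW-501516 and rosiglitazone slices, with a symbol per cow. Under rosiglitazone, CD74, BOLA-DRA, BOLA-DRB3, BOLA-DMA and BOLA-DMB lie below 0 in all 3 cows, between -4.18 and -0.87, and for every one of these except BOLA-DMB cow 581 is lowest and cow 576 highest.

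Counted over cows, 5 of the 7 genes with counts (CD74, BOLA-DRA, BOLA-DRB3, BOLA-DMA and BOLA-DMB) were below the own control in all 3 cows under rosiglitazone, as were 11.6% of all 19824 genes tested. The same 5 genes were below it under GW-501516 (10.3% of all genes), and 2 of 7 (CD74 and BOLA-DRB3) under WY-14643 (10.4% of all genes). Under GW-501516 BOLA-DRA of cow 581 was all but level with its control, at 99.4%. Its fitted log2 fold change under GW-501516 was 0.03 without the control library of cow 581. With cow 576 left out, the GW-501516 count was again 5 of 7, against 16.8% of all genes in the remaining 2 cows. The median fitted log2 fold change of the 7 genes against control was -0.40 for WY-14643, -0.87 for GW-501516 and -2.45 for rosiglitazone, beside medians over all genes of 0.12, 0.00 and 0.08. These contrasts were used to choose the genes and share their 3 control libraries, so nothing is read from the counts. For GW-501516 the median was -0.31 without its library of cow 576, and -1.51 without the 3 marked libraries.

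The cows differed in how far the level was below the control. The median log2 ratio of the 7 genes to the own control under rosiglitazone amounted to -3.23 (cow 581), -1.34 (cow 576) and -2.20 (cow 567). Under GW-501516 it amounted to -0.21, -2.52 and -0.80, and under WY-14643 to -0.40, -0.29 and -0.30. Cow 581 thus had the largest difference under rosiglitazone and the smallest under GW-501516, and the value of cow 576 under GW-501516 comes from the library with the highest RN18S1 share, whose part in it was not tested. In the control slices, cow 581 had the highest level of CD74, BOLA-DRA, BOLA-DRB3, BOLA-DMA and BOLA-DMB.

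Agonists were also compared with each other, which asks whether the 3 receptors' ligands left different class II levels. WY-14643 and rosiglitazone were given at the same dose, and GW-501516 at a lower one (50 against 100 µM), so compound and dose cannot be told apart in its contrasts. The genes had been chosen with the rosiglitazone values known, so these p-values are not independent of that choice. The 3 contrasts were adjusted by Benjamini-Hochberg over all 19824 genes, with a threshold of 0.2.

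BOLA-DRA was lower in rosiglitazone than in WY-14643 slices, by a log2 fold change of -2.57 ± 0.48 (edgeR adjusted p = 0.0149), in all 3 cows. BOLA-DRB3 was lower by -1.99 ± 0.53 (adjusted p = 0.182), also in all 3 cows. That call was lost, at -0.80 and an adjusted p of 1, without the 3 marked libraries, which include 2 of the 3 WY-14643 libraries. It was also lost on leaving out any of 6 single libraries, namely control 581 or 567, WY-14643 581, rosiglitazone 581 or 576, or GW-501516 567 (adjusted p between 0.215 and 0.770). These 2 of 7 genes stand beside 0.288% of all genes called lower in this contrast. CD74 had a log2 fold change of -1.38 (95% interval -2.22 to -0.54, adjusted p = 0.329, and 0.0527 with the cow as a block). DESeq2 called 3 of 7 genes (BOLA-DRA, BOLA-DRB3 and CD74, the last at an adjusted p of 0.0993), and 133 over all genes, higher or lower. Without the 3 marked libraries, which leaves 1 WY-14643 library, the value of CD74 was -1.72.

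The remaining genes did not pass between rosiglitazone and WY-14643. BOLA-DMA had -2.19 (95% interval -3.98 to -0.40), BOLA-DMB -1.74 (-3.61 to 0.13), CIITA -2.18 (-5.94 to 1.58) and BOLA-DQB -2.06 (-6.10 to 1.99). The intervals of CIITA and BOLA-DQB are too wide to show that rosiglitazone and WY-14643 acted alike or differently on them. BOLA-DMA passed (adjusted p = 0.0997) when the GW-501516 library of cow 576 was left out of the shared estimate of the spread.

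Between rosiglitazone and GW-501516, 1 of 7 genes passed, BOLA-DRA, with a log2 fold change of -2.19 ± 0.48 (edgeR adjusted p = 0.0840) and lower in all 3 cows, against 0.0454% of all genes called lower. The call was lost without GW-501516 581, where the value was -1.42, and without any 1 of the 3 rosiglitazone libraries (adjusted p 0.320 to 0.561 over these 4). BOLA-DRB3, lower in 2 of 3 cows, had -1.89 ± 0.53 (adjusted p = 0.462, and 0.0526 with the cow as a block), and passed at 0.00603 without the GW-501516 library of cow 576. Between GW-501516 and WY-14643 0 of 7 genes passed (0.0908% of all genes called lower), with adjusted p from 0.811 to 1, while 1 of them (BOLA-DQB) had an unadjusted p under 0.05 in edgeR and DESeq2 called 0. There CD74 differed by -0.18 (95% interval -1.003 to 0.64) and BOLA-DRA by -0.38 (-1.29 to 0.54).

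**Figure D3:**
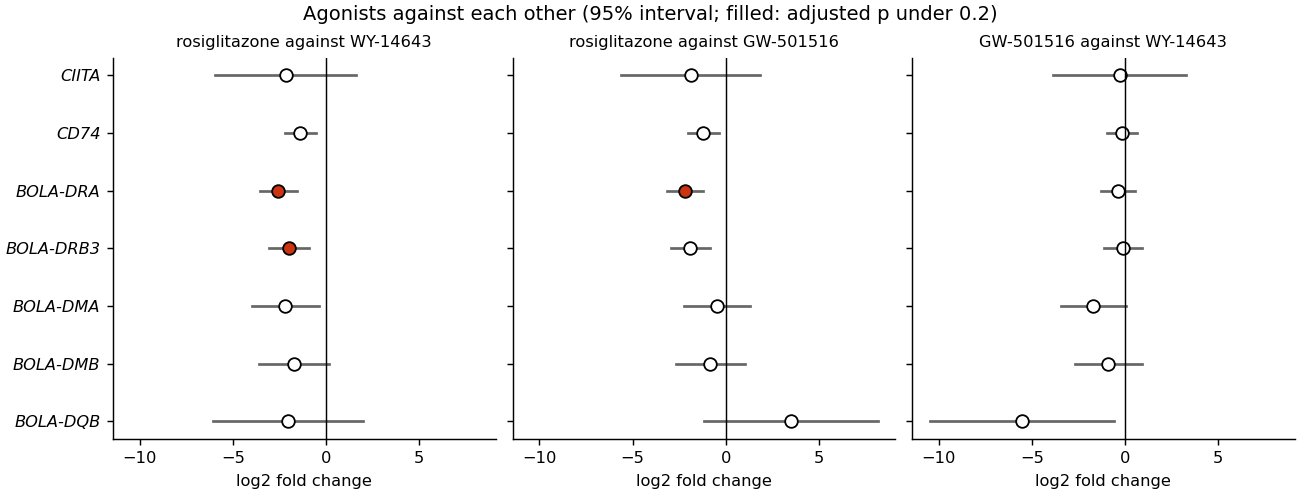
Log2 fold change (horizontal axis) of the 7 genes between agonists, with 95% intervals from edgeR as lines and filled points where the adjusted p is under 0.2. Filled are BOLA-DRA (-2.57) and BOLA-DRB3 (-1.99) for rosiglitazone against WY-14643, and BOLA-DRA (-2.19) for rosiglitazone against GW-501516, and no gene for GW-501516 against WY-14643.

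BOLA-DQB, a beta chain of the polymorphic DQ pair, was counted almost only in cow 576. It had 9.35 CPM (49 counts) in its WY-14643 slices, 0 counts in its GW-501516 slices, 2.26 CPM (14 counts) in its rosiglitazone slices and 12.8 CPM (46 counts) in its control slices. Cow 567 had 10 counts over 4 libraries and cow 581 had 1. Its differences between groups therefore rest on 1 cow, and the fitted fold change of rosiglitazone against control changed sign, to 2.33 on the log2 scale, without the control library of cow 576. The number of DQ genes carried differs between cattle haplotypes, and closely similar copies could share or lose reads in mapping, so DQ counts are uncertain.

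The other DQ genes of the table gave each cow its own pattern. BLA-DQB, another DQ beta chain (named BOLA-DQB1 in RefSeq), averaged 152 CPM in cow 581, 15.0 CPM in cow 576 and 44.3 CPM in cow 567 (n = 4 libraries each). BOLA-DQA2, an alpha chain, averaged 0.0203, 3.48 and 16.7 CPM in these cows, with 1 count in all 4 libraries of cow 581. BOLA-DQA5, another alpha chain, had 59 counts in cow 576 and 0 in the other cows. The ratio of BLA-DQB to BOLA-DQB counts was 2.20 in the control slices of cow 576 and 341 in those of cow 567.

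**Figure D4:**
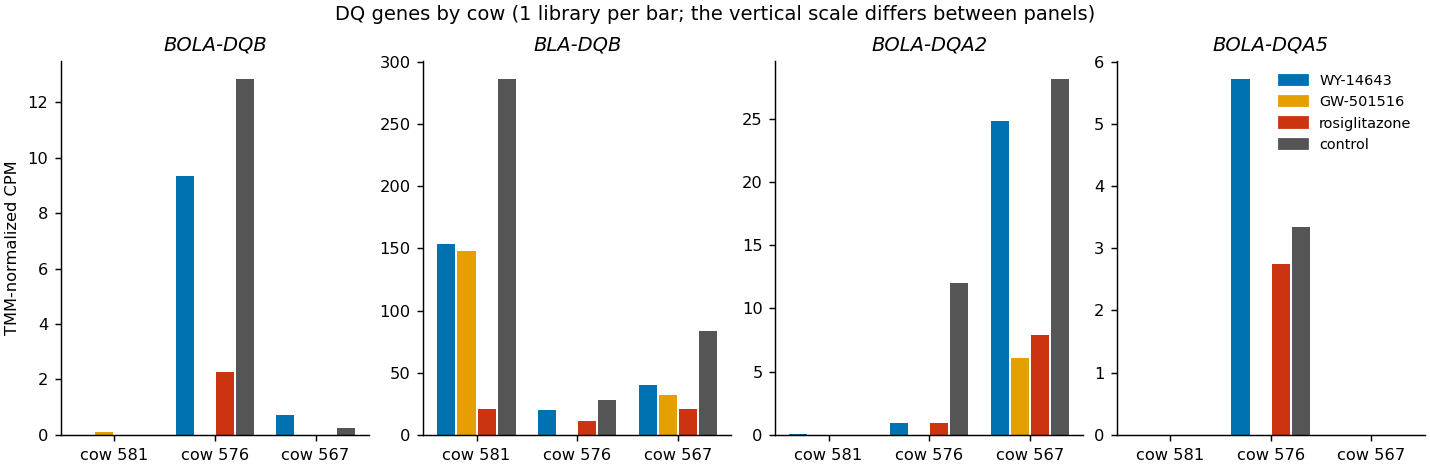
TMM-normalized CPM (vertical axes, on a different scale in each panel) of 4 DQ genes by cow, with 1 bar per library in the order WY-14643, GW-501516, rosiglitazone and control. BOLA-DQB and BOLA-DQA5 appear almost only in cow 576, BOLA-DQA2 in cows 576 and 567, and BLA-DQB in all 3, most in cow 581 (286 CPM in its control slices).

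Differences between cows were tested with treatment in the model, where the 4 libraries of a cow are slices of 1 liver, so the spread is that between slices. BOLA-DRB3 differed between cows (edgeR adjusted p = 2.18e-05), with means of 290 ± 176 CPM in cow 581, 71.8 ± 37.6 CPM in cow 576 and 205 ± 116 CPM in cow 567 (SD, n = 4 libraries). BOLA-DRA passed as well (adjusted p = 0.120), but not without any of 7 single libraries, at least 1 from each cow, nor without the 3 marked libraries (adjusted p 0.213 to 1 over these). Of the 7 genes, 2 passed, against 4.67% of all genes. BOLA-DQB had an adjusted p of 0.210, and CD74, CIITA, BOLA-DMA and BOLA-DMB had adjusted p between 0.925 and 0.978. Among the other class II genes, BLA-DQB (adjusted p = 3.64e-13), BOLA-DQA2 (1.73e-06) and BOLA-DQA5 (0.171) passed.

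BOLA-DOB is the beta chain of DO, which restrains DM in B cells, and BOLA-DYA is the alpha chain of DY, a class II pair of ruminants. Neither had a count in the 12 libraries. Their partners were scarce: BOLA-DOA, the alpha chain of DO, had 43 counts in WY-14643, 34 in GW-501516, 7 in rosiglitazone and 44 in control slices (3 libraries each). BOLA-DYB, the beta chain of DY, had 12, 0, 26 and 0 counts in the same groups, nearly all from cow 567. DSB, which the table lists without a partner, had 24, 31, 23 and 13 counts, and BOLA-DRB2 had none.

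In gene order on the RefSeq assembly, used here for names and neighbours only, the class II genes of the table fall into 2 stretches of the same chromosome. DSB, BOLA-DYA, BOLA-DYB and BOLA-DOB are neighbours, followed after 6 coding genes by BOLA-DMB and BOLA-DMA and after 1 more by BOLA-DOA. The DQ genes and BOLA-DRB3, BOLA-DRB2 and BOLA-DRA follow after a further 240 coding genes. CIITA and CD74 lie on other chromosomes. The genes lower under rosiglitazone in all 3 cows thus include members of both stretches and CD74, which is outside them.

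Within a library, the counts of paired genes did not move in step everywhere. The ratio of CD74 to BOLA-DRA counts was 0.410 to 0.507 in the 3 marked libraries, against 0.925 to 1.55 in the other 9. The same ratio in rosiglitazone slices was 1.42, 1.55 and 1.15 (cows 581, 576 and 567), against 1.16, 1.47 and 1.23 in control slices, so CD74 and BOLA-DRA differed from control by similar factors under rosiglitazone. The ratio of BOLA-DRB3 to BOLA-DRA counts was 1.94, 1.40 and 3.23 in rosiglitazone slices, against 2.09, 1.36 and 2.704 in control slices. The marked libraries were also the deepest, with the lowest RN18S1 shares, and the part of either in the ratio was not tested.

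BOLA-DMA and BOLA-DMB, counted as a ratio, were less even. BOLA-DMA had 0.25, 1.72 and 0.5 counts per count of BOLA-DMB in rosiglitazone slices, against 1.77, 1.18 and 2.59 in control slices. In cow 581 the rosiglitazone ratio rests on 4 BOLA-DMA and 16 BOLA-DMB counts.

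Over the 12 libraries, the log2 CPM of BOLA-DMA followed the mean of the 7 genes most closely (Pearson r = 0.94) and BOLA-DQB least (r = 0.46). BOLA-DRA and BOLA-DRB3 correlated at r = 0.89, BOLA-DMA and BOLA-DMB at r = 0.90, and CD74 and BOLA-DRA at r = 0.84, while CIITA correlated with CD74 at r = 0.41. BOLA-DQB had r = -0.19 with BOLA-DRB3. The 12 points share cows, treatments and depth, so these are descriptions.

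Among 8193 genes with at least 50 counts on average, those whose log2 CPM was most like the mean of the 7 genes included LOC508153 (r = 0.97), ROBO4 (0.94), CD68 (0.92), CCL4 (0.92), ARPP19 (0.92), DDX46 (0.92), MX2 (0.91), CREG1 (0.91) and RSU1 (0.90). Without the GW-501516 library of cow 576 their r ranged from 0.87 to 0.95 over 11 libraries. ROBO4 is an endothelial receptor, CD68 a lysosomal glycoprotein of macrophages, CCL4 a chemokine, and MX2 an interferon-induced GTPase. CCL4 averaged 8.37 ± 5.54 CPM in rosiglitazone slices and 44.7 ± 11.6 CPM in control slices, and CD68 34.3 ± 17.1 and 85.1 ± 27.4 CPM (SD, n = 3 each). These genes were picked for likeness to a mean that was itself low in rosiglitazone slices, so lower values there follow from the choice.

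Lists of other genes of the class II pathway were tested against control over all genes. The lists were chosen with earlier results of these data known, so their counts and p-values are not independent of that choice. Across all genes, 0.303% were called lower under rosiglitazone, 0.0555% under GW-501516 and 0.111% under WY-14643. Counted in either direction, 1347, 1551 and 1562 of 19824 genes had an unadjusted edgeR p under 0.05, in the same order. With the cow as a block 567, 402 and 532 genes were called, higher or lower. Among 10 proteases and related genes of invariant chain and antigen digestion, 5 fell under rosiglitazone and none rose. CTSS, cathepsin S, which cuts the invariant chain, had 105, 314 and 160 CPM in rosiglitazone slices of cows 581, 576 and 567, against 956, 1023 and 806 CPM in control slices. Its groups did not overlap, and the log2 fold change was -2.26 ± 0.44 (edgeR adjusted p = 0.0116).

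The other 4 were CTSB (log2 fold change -1.16 ± 0.31, adjusted p = 0.142), CTSH (-1.74 ± 0.48, 0.154) and CTSZ (-1.44 ± 0.37, 0.0953), which are cathepsins, and CST3 (-1.72 ± 0.46, 0.129), a cathepsin inhibitor. CTSD and IFI30, a thiol reductase of endosomes, joined them (7 of 10) with the cow as a block, without the GW-501516 library of cow 576 and without the 3 marked libraries. LGMN, CTSL and SPPL2A had log2 fold changes of -0.09, -0.43 and -0.15. The list's median was -1.36 under rosiglitazone, -0.59 under GW-501516 and 0.01 under WY-14643. Under GW-501516 0 of 10 fell in edgeR (4 at an unadjusted p under 0.05, 2 in DESeq2), and 4 (CTSZ, CTSH, CTSD and CTSS) did with the cow as a block. Under WY-14643 0 of 10 passed (2 unadjusted, 0 in DESeq2), and with the block CTSD fell and LGMN rose. Between rosiglitazone and WY-14643, CTSS (-1.83, edgeR adjusted p = 0.0986), CTSH (-2.33, 0.0358) and IFI30 (-1.87, 0.0986) were lower in rosiglitazone slices. Between rosiglitazone and GW-501516 0 of 10 passed in edgeR (1, CST3, at an unadjusted p under 0.05, 0 in DESeq2), and CTSH was lower in GW-501516 than in WY-14643 slices (-1.92, adjusted p = 0.173).

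Of 19 genes that act on class II transcription, SPI1, which encodes the myeloid factor PU.1, alone fell under rosiglitazone. It had 15.1, 26.3 and 8.34 CPM in rosiglitazone slices, against 61.3, 92.9 and 35.7 CPM in control slices (log2 fold change -1.92 ± 0.51, edgeR adjusted p = 0.124). The groups did not overlap, and SPI1 was also lower than in WY-14643 slices (-2.24, adjusted p = 0.0701) but did not pass against GW-501516 slices (-1.21, adjusted p = 0.930). RFX5, part of the complex that recruits CIITA, had 1, 0 and 0 counts in rosiglitazone slices, against 11, 17 and 27 in control slices, but did not pass (adjusted p = 0.448); it passed in DESeq2 and without the GW-501516 library of cow 576. RFXANK and RFXAP, the other subunits, had log2 fold changes of 0.49 ± 1.60 and 0.42 ± 1.03. SMARCA4 and EP300, the most counted genes of the list, had 0.02 ± 0.37 and -0.42 ± 0.39.

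None of the 10 genes of the interferon gamma route, the best known inducer of CIITA, passed under rosiglitazone (median log2 fold change -0.29; 1, IRF1, at an unadjusted p under 0.05 in edgeR, 0 in DESeq2). JAK1 had -0.46 ± 0.38 and IFNGR2 -0.28 ± 0.40. IFNG itself had too few counts to be read, 1.17 per library on average.

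Of genes of class II turnover and traffic, 1 of 5 fell under rosiglitazone. It was CD83, a surface protein that stabilizes class II, with 28.4, 30.5 and 20.7 CPM in rosiglitazone slices, against 161, 96.3 and 73.4 CPM in control slices (log2 fold change -2.05 ± 0.44, edgeR adjusted p = 0.0336). CD82, a tetraspanin, also fell with the cow as a block (-1.59 without it, adjusted p = 0.468), as it did under GW-501516 (-1.93 without it, 0.298). Of 8 genes of costimulation, CD274, which encodes the inhibitory ligand PD-L1, fell (-1.78 ± 0.49, adjusted p = 0.148), and CD40 as well with the block (-1.80 ± 0.56 without it, adjusted p = 0.292). Without the GW-501516 library of cow 576 the costimulation count was 4 of 8 (CD86, CD40, CD48 and CD274). In that setting 618 genes were called over all, higher or lower. The costimulation list had the lowest median of the pathway lists, -1.71.

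The 4 partners of surface CD74 had no edgeR call in any agonist (1 gene, CD44 under GW-501516, at an unadjusted p under 0.05, 0 in DESeq2), with CD44 at -0.39 ± 0.38 and CXCR4 at -1.21 ± 0.70 under rosiglitazone, nor had CD4 and LAG3, which bind class II. Of the 6 other class II genes tested, BLA-DQB fell under rosiglitazone. It had 20.8, 11.5 and 20.96 CPM in rosiglitazone slices, against 286, 28.2 and 83.4 CPM in control slices (log2 fold change -2.90 ± 0.82, edgeR adjusted p = 0.181). Its groups did not overlap, DESeq2 did not call it, and it fell under GW-501516 as well with the cow as a block (-1.60, adjusted p = 0.0186; -1.12 and 0.667 without it).

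Markers of cell types that can carry class II were summed by library, and few of them passed a test. The summed level of the 12 macrophage and Kupffer cell markers was 216 to 465 CPM in rosiglitazone slices, 211 to 472 CPM in GW-501516 slices and 396 to 1697 CPM in WY-14643 slices, against 651 to 1321 CPM in control slices. The 9 dendritic cell markers summed to 10.97 to 30.5 CPM in rosiglitazone slices, against 36.0 to 72.4 CPM in control slices, and the 8 endothelial markers to 173 to 243, against 441 to 674 CPM. The 8 B cell markers summed to 13.7 to 15.96 CPM in rosiglitazone slices and 15.6 to 36.6 CPM in control slices. No marker of these lists was at 0 in all 12 libraries, but single libraries lacked many. In the control library of cow 581, 5 of 9 dendritic and 5 of 8 B cell markers were at 0. In the GW-501516 library of cow 576, 7 dendritic, 7 B cell and 6 of the 12 macrophage markers were at 0.

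Lists of other cell types were summed in the same way. The 7 T and NK cell markers summed to 17.03 to 22.6 CPM in rosiglitazone slices, against 66.7 to 82.4 CPM in control slices, and the 8 stellate cell and fibroblast markers to 127 to 220, against 339 to 1220 CPM. The T and NK cell list was also below own control in GW-501516 slices (29.9 to 52.9%) and WY-14643 slices (40.2 to 62.3%). For the stellate list these ranges were 25.9 to 122% and 72.6 to 227%. Hepatocyte markers summed to 4069 to 6247 CPM in rosiglitazone slices and 2025 to 5170 CPM in control slices, ranges that overlap, and they lay on both sides of the own control (173, 309 and 78.7% in cows 581, 576 and 567). The 5 bile duct markers were not lower under rosiglitazone, at 101.9, 119.9 and 115.1% of own control in the same cows. The 5 neutrophil markers stood at 73.4, 83.5 and 41.8%. In percent of own control, the rosiglitazone slices of cows 581, 576 and 567 held 8.64, 38.02 and 19.6% for the class II genes, and 16.4, 60.3 and 45.4% for the macrophage list. For the T and NK cell list it was 20.7, 25.6 and 29.1%, for the dendritic list 42.2, 30.5 and 37.9%, and for the stellate list 38.3, 18.1 and 30.6%, so in cow 576 these 3 lists lay lower than the class II genes. The part of these markers in the class II result was not tested.

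Few single markers passed. Under rosiglitazone C1QA, a complement gene of macrophages, fell (log2 fold change -2.01 ± 0.47, edgeR adjusted p = 0.0569), as 1 of 12 macrophage markers. With the cow as a block the count was 5 of 12, and without the 3 marked libraries 6 of 12. Over all genes, these settings called 567 and 461, higher or lower. The dendritic, B cell, T and NK cell, endothelial, hepatocyte and bile duct lists had no edgeR call under rosiglitazone. At an unadjusted p under 0.05 stood 5 of 8 endothelial, 3 of 7 T and NK cell, 2 of 8 hepatocyte, 1 of 9 dendritic and no B cell or bile duct markers, and DESeq2 called 1 endothelial and 1 T and NK cell marker. Over all genes, 1347 of 19824 stood under that unadjusted p in edgeR, and DESeq2 called 370, higher or lower. With the cow as a block, 3 of 8 endothelial markers, 1 of 7 T and NK cell markers and 3 of 8 hepatocyte markers (higher) were called. DCN, a matrix gene, was the 1 of 8 stellate cell and fibroblast markers to fall in edgeR (-2.28 ± 0.59, adjusted p = 0.110). DESeq2 called COL3A1 and not DCN, and both fell with the cow as a block.

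Under GW-501516 C1QA (-1.87 ± 0.47, adjusted p = 0.152) and CD5L (-3.20 ± 0.85, 0.182), a Kupffer cell gene, fell, and under WY-14643 CD5L (-3.21 ± 0.85, edgeR adjusted p = 0.140). DESeq2 called C1QA and MARCO under GW-501516 and no macrophage marker under WY-14643, so CD5L was not called by it. With the cow as a block 6 of 12 macrophage markers fell under GW-501516. Of 4 neutrophil markers tested, 3 rose under WY-14643 (S100A8, S100A9 and S100A12), against 0.424% of all genes called higher. DESeq2 called none of them. Most S100A8 counts of that group, 3050 of cow 576 against 167 and 79 of the other cows, came from 1 library.

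**Figure D5:**
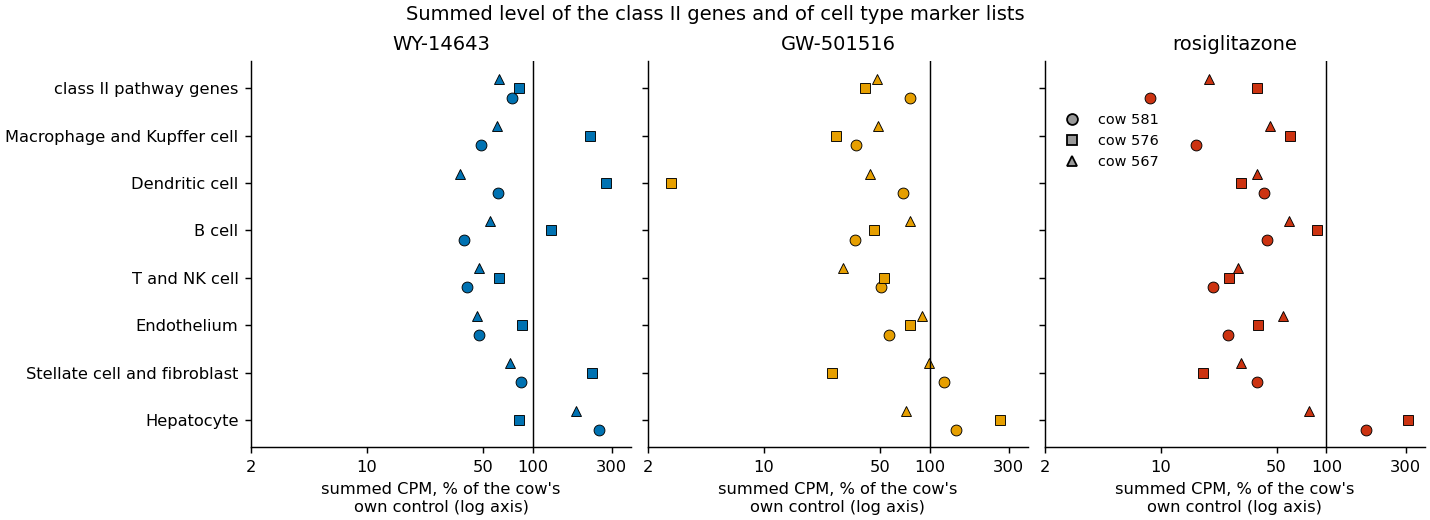
Summed CPM in percent of the same cow's control slices (horizontal axis, logarithmic, with a line at 100%) for the 9 class II pathway genes and 7 cell type marker lists, in WY-14643, GW-501516 and rosiglitazone slices, with a symbol per cow. Under rosiglitazone the class II sum lies at 8.64 to 38.02% and the macrophage, dendritic, B cell, T and NK cell, endothelial and stellate lists all lie below 100% in 3 of 3 cows, the hepatocyte list at 78.7 to 309%. The macrophage, dendritic, B cell, T and NK cell and endothelial lists also lie below 100% in 3 of 3 cows under GW-501516. Of the marker lists drawn, only the T and NK cell and endothelial lists do so under WY-14643. The bile duct and neutrophil lists are not drawn.

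Cow 574, which did not enter the tests, had few class II counts: 29 in WY-14643, 79 in GW-501516, 19 in rosiglitazone and 54 in control slices over the 9 genes. Its libraries held 772012 to 970406 counts in genes, and 79.6 to 84.3% of their reads fell outside annotated genes, against 29.1 to 54.1% in the other 12. As shares of its counts outside RN18S1, the 9 genes took 0.00409% (95% exact binomial interval 0.00246 to 0.00638%) in rosiglitazone slices, against 0.00828% (0.00622 to 0.0108%) in control slices. These intervals cover counting error only, not the spread between slices, and 1 library per group allows no test. CD74 had 10 counts in rosiglitazone and 11 in control slices, BOLA-DRA 1 and 12, and BOLA-DRB3 2 and 6. Alone among the cows, it had BOLA-DOB counts, 1 in WY-14643 and 11 in control slices.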

How the data were processed

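The authors prepared 3' QuantSeq libraries and trimmed and mapped reads with Trimmomatic 0.39 and STAR 2.7.1 on ARS-UCD1.2. They deposited whole-number counts of reads per gene (16 libraries) with no normalization. The header carries STAR's gene count name, whereas the methods name StringTie 2.0, and no source states the strand setting, which leaves overlapping or near-identical genes uncertain. The 4 tallies outside genes (29.1 to 54.1% of reads in no gene in the 12 libraries) were left out of totals and tests, and 26 names turned into dates are not named.

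Counts of 12 libraries (cows 581, 576 and 567) were analysed in R 4.3.3 with edgeR 4.0.16: genes over 4 counts in at least 1 library (19824), TMM, quasi-likelihood F test with treatment as the only term, and Benjamini-Hochberg adjustment with a threshold of 0.2. Intervals of fold changes (95%) use edgeR's standard error and total degrees of freedom. The test was tried on simulated data with 200 changed genes, none of them of low count, and with no differences between cows. That trial did not count false calls and does not cover genes of few counts such as CIITA and BOLA-DQB. Same-numbered libraries are slices of 1 cow, so numbers pair the samples (correlation of their deviations from group means 0.098 on average over 18 pairs, -0.029 to 0.282, against -0.048 over 36 pairs of different cows), and a fit with the cow as a block was an alternative, as were DESeq2 1.42.0, other filters and leaving out libraries. Log2 ratios to own control had 1 CPM added. Figures used matplotlib.

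Named were the 9 genes, the 10 most correlated genes, and of each pathway list the genes that passed against control or else the 2 most counted; other genes named were chosen after their values were seen. Some genes that this rule or these lists hold are not reported here. Members and lists were chosen with earlier results of these data known. No sequences or coordinates are given, since the gene table at hand is of another assembly (24700 of 28786 names matched).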

Additional observations from a re-analysis of the deposited data

Results flagged for a closer look

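Values in this part use 1 scaling over all 16 libraries, and a value is given where 1 of the 4 cows of a group lay far from the others (Dixon's test). Of 30 sets of a gene and group tested, 7 qualified. Chance gives about 1 in 20 for continuous values, but in 5 of the 7 the other 3 cows were at 0, where any single count qualifies, so that rate does not apply to them. BOLA-DQB of cow 576 stood above the other cows in WY-14643 (10.4 CPM, next highest 0.787), rosiglitazone (2.55 CPM, others 0) and control slices (14.2 CPM, next highest 0.271). In GW-501516 slices its value of 0.127 CPM in cow 581 is 1 count, against 0 in the other cows. CIITA had 2.01 CPM in rosiglitazone slices of cow 576 and 0 in the other 3 cows. BOLA-DOB was counted only in cow 574, at 0.802 CPM in WY-14643 slices, which is 1 count, and at 8.27 CPM in control slices.

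In cow 574, outside the tests, BOLA-DRA had 27 counts in GW-501516 slices, against 12 in its control slices, and BOLA-DRB3 23 against 6. The lower bounds of the depth-corrected ratios (95% exact binomial) were 1.05 and 1.45. They compare 1 library with 1 library and cover counting error only, so they do not show a difference between the conditions. In the other 3 cows both genes were below the own control in GW-501516 slices, though BOLA-DRA of cow 581 only at 99.4% of it. The difference between cows was not tested.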

How the results depend on the processing

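The count of genes called moved with most settings, and the cause was not tested. For WY-14643, GW-501516 and rosiglitazone against control, 106, 61 and 125 genes were called. These were 321, 524 and 370 with DESeq2, 408, 340 and 332 with no filter, 0, 3 and 9 with edgeR's filterByExpr, and 0, 0 and 0 with all 16 libraries (edgeR; unadjusted p under 0.05 in 1562, 1551 and 1347 genes of the 12-library fit). Without the 3 marked libraries GW-501516 had 308 and rosiglitazone 461. For rosiglitazone against WY-14643, rosiglitazone against GW-501516 and GW-501516 against WY-14643, with 67, 15 and 31 genes called, the counts were 133, 82 and 133 with DESeq2, 195, 84 and 199 with no filter, 0, 2 and 0 with filterByExpr, 0, 0 and 0 with all 16 libraries, and 494, 109 and 345 without the marked libraries. With DESeq2's size factors GW-501516 against WY-14643 had 53. Between cows 926 genes were called, 160 with filterByExpr, 12314 with all 16 libraries and 214 without the marked libraries.

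With the cow as a replicate block the counts were 532, 402 and 567 against control, and 251, 113 and 230 between agonists in the same order. Of the 7 class II genes' calls between agonists, the block changed CD74 (rosiglitazone against WY-14643) and BOLA-DRB3 (rosiglitazone against GW-501516) and no other.

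Leaving out 1 library at a time gave 0 to 1002 genes for WY-14643 against control (0 without control 581, 1002 without WY-14643 576), 7 to 345 for GW-501516 and 13 to 618 for rosiglitazone against control, 27 to 311 for rosiglitazone against WY-14643, 1 to 87 for rosiglitazone against GW-501516, 15 to 301 for GW-501516 against WY-14643 and 429 to 1216 between cows.

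The median log2 fold change of the 7 genes against control was -0.49 to -0.17 (WY-14643), -1.50 to -0.31 (GW-501516) and -2.78 to -2.16 (rosiglitazone) over the same libraries left out. For WY-14643, -0.40 in the main analysis, it was -0.46 with DESeq2's size factors, -0.50 without the marked libraries and -0.0025 with the block. The median log2 ratio to own control under WY-14643 was -0.30, and -0.23 with 5 CPM added.

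BOLA-DRA between rosiglitazone and WY-14643 kept its call except with filterByExpr (adjusted p = 0.446) and all 16 libraries (1). BOLA-DRB3 in that contrast also lost it with DESeq2's size factors (0.2005), filterByExpr (0.856) and all 16 libraries (1). The BOLA-DRA call between rosiglitazone and GW-501516 was lost with filterByExpr (edgeR adjusted p = 0.582) and with all 16 libraries too. The runs without the GW-501516 library of cow 576 and without the marked libraries for gene lists, cows and similar genes were chosen after seeing the data. Depth limits CIITA, BOLA-DQB, BOLA-DOB and BOLA-DYA, where 0 counts allow up to 0.240 to 1.19 CPM.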
